A study of Mus musculus with 6 samples.

Results

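The genes described here encode subunits of potassium channels. They were taken from the deposited expression values as every gene whose probe set was annotated to exactly 1 symbol beginning with Kcn, a family letter or letters and a number. Kcne2 and Kcnj13, which are abundant in choroid plexus, and the noncoding RNA Kcnq1ot1 were left out. This gave 87 genes of 22180 tested. Where a gene had several probe sets, the brightest by its average over the 6 arrays stood for it. This rule does not use the difference between the groups, but it was set with earlier results of these data known. Of the 87, Kcnd3os is named as a transcript from the strand opposite Kcnd3 and is not itself a channel subunit. Channel genes that lacked a probe set with a single symbol were not analysed here.

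RNA came from mouse cerebellum at postnatal day 7. The knockout group (Math1Cre::CrebbpFl/Fl, 3 arrays) is labelled as having lost Crebbp, and the wild-type group (Math1Cre, 3 arrays) as wild type for Crebbp. Both groups therefore carried the Cre transgene, and the labels do not say whether the wild-type mice also carried floxed alleles. Math1, also called Atoh1, is expressed in granule neuron precursors, so recombination is directed to that lineage, while the RNA came from the tissue as a whole. Crebbp encodes a lysine acetyltransferase that binds the transcription factor CREB. Values are log2 expression, so a difference of 1 is a doubling, and all changes are knockout minus wild type on that scale.

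Potassium channels let potassium leave or enter the cell and so set the resting potential, end each action potential and limit how fast a neuron fires. Voltage-gated (Kv) channels assemble from pore-forming subunits with cytoplasmic or membrane-spanning auxiliary subunits, inward rectifiers (Kir) hold the membrane near rest, calcium- and sodium-activated channels follow activity, and tandem pore domain (K2P) channels carry background leak. Cerebellar granule neurons are known for a strong leak current through K2P channels of the TASK type, which grows as the cells mature.

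Most of the movement in the potassium channel genes was downward in the knockout, with 1 gene going the other way. Of the 87 genes, 15 fell and 1 rose past an adjusted p of 0.05 in limma, and 71 did not pass. Of the potassium channel genes 17.2% fell and 1.15% rose, against 3.94% and 2.72% of all genes tested, where 6.67% passed in either direction. The genes that fell span every subfamily: the Kv1 subunit Kcna1, the Kv3 subunits Kcnc1 and Kcnc4, the silent subunit Kcns2, the M-current subunit Kcnq5, the ERG subunit Kcnh7, the auxiliary subunits Kcnip3 and Kcnmb4, the sodium-activated Kcnt1, the inward rectifiers Kcnj3, Kcnj6 and Kcnj11, and the leak channels Kcnk1, Kcnk10 and Kcnk12. The gene that rose was Kcnk9, which encodes the leak channel TASK-3.

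The median change of the 87 genes was -0.09, beside -0.003 for all genes tested. Values below 0 were found for 62 of them and values above 0 for 25. The arrays of the groups did not overlap for 29 genes that were lower in the knockout and for 2 that were higher, where 13.1% and 11.8% of all genes did not overlap in those directions. All 16 genes past the threshold were among the 44 members with the higher means, and none was among the 43 with the lower means. Among all genes with a mean at or above the median of the potassium channel genes, 7.18% fell and 4.17% rose. For 34 of the 87 genes the 95% confidence interval of the change lay within 0.3 of zero on either side. The changes by subfamily are plotted with their intervals.

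**Figure D1:**
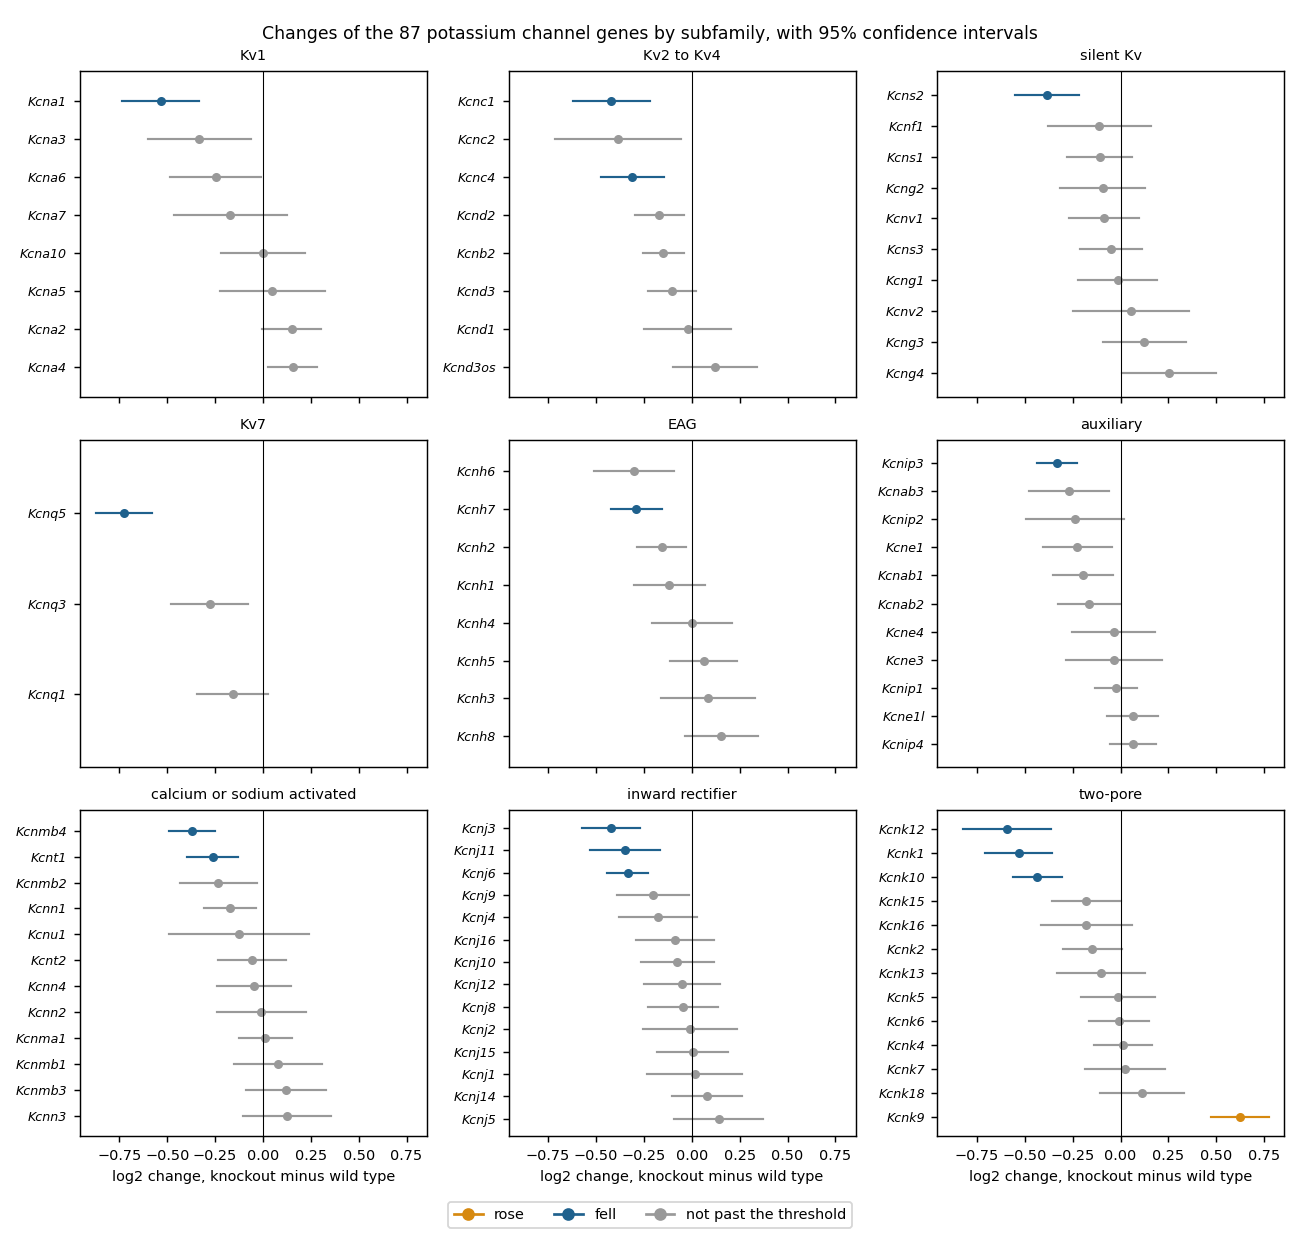
Log2 change (knockout minus wild type, horizontal axis) of each of the 87 potassium channel genes, in 9 subfamily panels that share the axis; points are limma estimates from 3 knockout and 3 wild-type arrays and lines are 95% confidence intervals. Genes that fell (blue) stand in every panel, Kcnk9 (orange, 0.62) is the 1 gene that rose, and the 71 grey points, which did not pass the threshold, lie between -0.39 and 0.25.

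Crebbp read 11.46, 11.42 and 11.32 on the knockout arrays, against 11.96, 11.99 and 11.90 on the wild-type arrays, so each array lay on the side of its label. It is not known here if the probe set lies in the exons that Cre removes, which limits what these values say about the labels. Most markers of granule neurons were lower as well, while Cbln3 was higher without passing in limma (change 0.34, adjusted p = 0.0863). In limma, 9 of 12 fell and none rose, and the mean of the list ran from 10.19 to 10.37 on knockout arrays and from 10.72 to 10.94 on wild-type arrays. Among granule lineage genes, the precursor factor Atoh1 rose (change 0.52, adjusted p = 0.00191), the vesicular glutamate transporter gene Slc17a7 fell (change -0.81, adjusted p = 0.000286), and Gabra6, a receptor subunit of mature granule neurons, did not pass (change -0.997, adjusted p = 0.0627). Gabra6 passed with array weights (change -1.12, adjusted p = 0.0378). It also passed with a replicate block, in samples not labelled as paired (change -0.997, adjusted p = 0.00718). With 1 array left out its change ran from -1.17 to -0.65, the smallest without knockout replicate 1. The log2 of the 12 granule neuron markers' summed signal was 14.48 to 14.53 on knockout arrays and 14.84 to 15.004 on wild-type arrays. Choroid plexus markers differed between arrays within each group: the mean of the 9 measured was 9.08, 7.30 and 9.69 on the knockout arrays and 7.96, 7.25 and 7.30 on the wild-type arrays, and none passed the threshold. The log2 of their summed signal was 10.87 to 14.32 on knockout arrays and 10.73 to 12.70 on wild-type arrays, and no marker was listed at 0. Among them Kl was at 1.35 (adjusted p = 0.192) and the left-out subunit gene Kcne2 at 0.95 (adjusted p = 0.140). Without knockout replicate 2 both passed, Kl at 2.11 (adjusted p = 0.00348) and Kcne2 at 1.45 (adjusted p = 0.000836), and without knockout replicate 3 they came to 0.70 and 0.59. Kcne2 was highest on the same 2 arrays, with 8.06, 6.78 and 8.52 on the knockout arrays and 6.98, 6.80 and 6.71 on the wild-type arrays. A few markers passed for granule precursors (3 of 10 rose and 1 fell), Purkinje cells (1 of 7 rose), astrocytes and Bergmann glia (3 of 10 rose and 1 fell) and unipolar brush cells (1 of 2 rose). The Purkinje cell list mean was 9.74 to 9.88 on knockout arrays and 9.58 to 9.68 on wild-type arrays. For astrocytes and Bergmann glia it was 10.71 to 10.82 and 10.63 to 10.69. For granule precursors it was 10.40 to 10.51 and 10.30 to 10.36. These list means did not overlap between the groups, while those of unipolar brush cells did. In the oligodendrocyte lineage 1 of 8 fell, with list means of 8.93 to 9.64 on knockout arrays and 9.65 to 9.75 on wild-type arrays. None of the markers of meninges (6), endothelium and pericytes (8), microglia (6) or inhibitory interneurons (6) passed. The meninges list was nevertheless shifted, with a median change of 0.32 and list means of 9.35 to 9.81 on knockout arrays and 9.21 to 9.28 on wild-type arrays, which do not overlap, and with Dcn, Lum, Col1a1 and Igf2 higher on every knockout array than on any wild-type array. The part of these cell types in the potassium channel changes was not tested, and in whole tissue fewer cells of a type and less RNA per cell cannot be told apart.

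The leak channels of the K2P family held both the single rise and 3 of the falls. Kcnk9 encodes TASK-3, an acid-sensitive leak channel of granule neurons. It read 11.13, 10.98 and 11.27 on the knockout arrays, against 10.48, 10.52 and 10.51 on the wild-type arrays. Every knockout array lay above every wild-type array, and the wild-type arrays were within a few hundredths of each other. The rise was 0.62 (SE 0.07, 95% interval 0.47 to 0.77), a 1.54-fold higher value in the knockout, with a limma adjusted p of 0.000867.

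Kcnk1, which encodes the weakly conducting leak subunit TWIK-1, had values of 11.20, 11.31 and 11.38 in the knockout and 11.69, 12.01 and 11.79 in wild type. The groups stood apart, and the fall was 0.53 on the log2 scale (a change of -0.53, SE 0.08, 95% interval -0.71 to -0.36, adjusted p = 0.00426), or 1.45-fold. Kcnk10 encodes TREK-2, a leak channel opened by membrane stretch, warmth and polyunsaturated lipids. Its values were 9.99, 9.86 and 9.86 on knockout arrays and 10.38, 10.38 and 10.25 on wild-type arrays, again without overlap (change -0.43, SE 0.06, adjusted p = 0.00230). Kcnk12, encoding the halothane-inhibited channel subunit THIK-2, read 7.47, 7.82 and 7.83 in the knockout against 8.26, 8.41 and 8.23 in wild type. Knockout replicate 1 was the lowest, and all 3 knockout arrays were below the wild-type arrays (change -0.59, SE 0.10, adjusted p = 0.00889, 1.51-fold lower in the knockout). The other 9 K2P genes ranged from -0.18 to 0.11 and did not pass. Among them Kcnk15, a member of the TASK subfamily by sequence, had the smallest p, with a change of -0.18 (adjusted p = 0.244), or -0.11 without knockout replicate 3. The TASK-1 gene Kcnk3 lay only on probe sets shared with another gene and was not tested. The TASK-3 gene and the other K2P genes that passed therefore moved in opposite directions on the same arrays, as the plot of values by array shows.

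**Figure D2:**
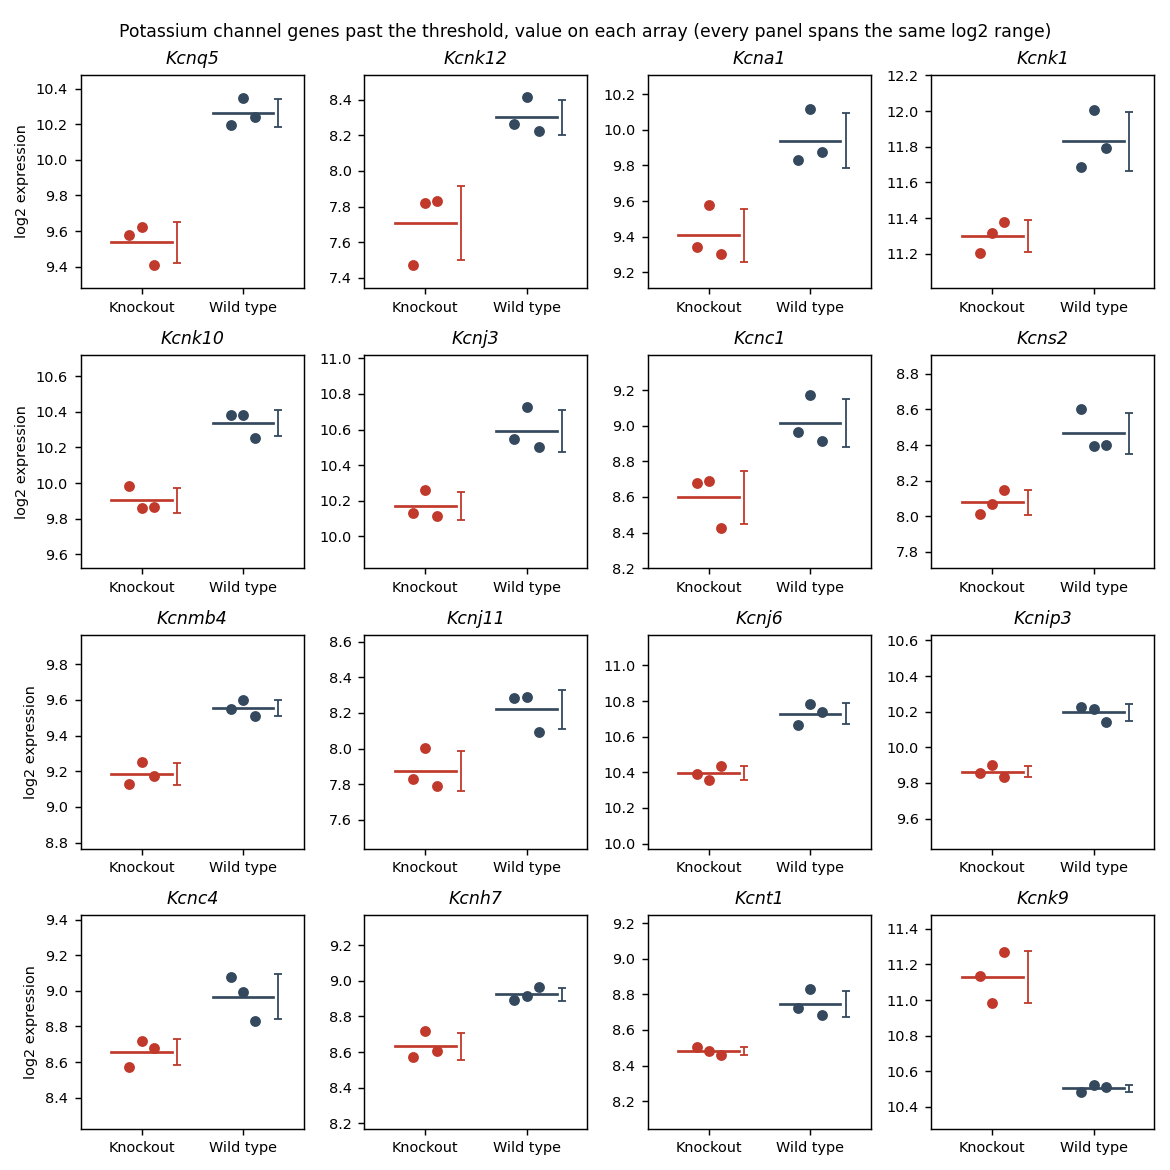
Log2 expression (vertical axis) of the 16 potassium channel genes past the threshold on each array, 3 knockout arrays at the left of each panel and 3 wild-type arrays at the right; horizontal lines are group means, bars at the side are 1 SD, and every panel spans the same log2 range. In all 16 panels the groups do not overlap, with knockout higher for Kcnk9 and lower for the other 15 genes.

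The largest change of the whole set belonged to Kcnq5, a subunit of the Kv7 channels that carry the M-current, a slow current that restrains repetitive firing. Kcnq5 read 9.58, 9.62 and 9.41 on the knockout arrays and 10.20, 10.35 and 10.24 on the wild-type arrays. The gap between the groups was wider than the spread within either (change -0.73, SE 0.07, 95% interval -0.87 to -0.58, adjusted p = 0.000385), and the value was 1.65-fold lower in the knockout. A second probe set of Kcnq5 was lower on all knockout arrays too but did not pass (change -0.33, adjusted p = 0.0793). Kcnq3, which pairs with other Kv7 subunits in neurons, had values of 9.30, 9.34 and 9.08 in the knockout and 9.69, 9.48 and 9.39 in wild type. These did not overlap, but the change of -0.28 missed the threshold (adjusted p = 0.104). Of the alternative fits, only the replicate block let Kcnq3 pass (adjusted p = 0.0282). Kcnq1, best known from heart and epithelia, was at -0.16 (adjusted p = 0.337).

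Promoter windows from RefSeq (assembly GRCm38.p6), 250 bases before to 50 after each annotated start, were available for 67 of the 87 genes and for 11 of the 16 that passed. They were searched on both strands for TGACG, the core of the cAMP response element that CREB binds, and for the full palindrome TGACGTCA, which contains that core. The core was present in 22.4% of the 67 genes and in 23.0% of all 27025 genes with a window. The palindrome was in 0 of the 67 and in 2.03% of all genes. Of the 11 genes with a window that passed, 3 held the core: Kcnj6, Kcnc1 and Kcnc4. The 250 bases before the start of Kcnq5 are shown because it changed most, a choice made after its values were seen. They lie at chr1:21962651-21962900 on the minus strand, hold 44.4% G and C against a median of 52.4% over all windows, and contain neither motif, so no letters are in capitals.
Kcnq5: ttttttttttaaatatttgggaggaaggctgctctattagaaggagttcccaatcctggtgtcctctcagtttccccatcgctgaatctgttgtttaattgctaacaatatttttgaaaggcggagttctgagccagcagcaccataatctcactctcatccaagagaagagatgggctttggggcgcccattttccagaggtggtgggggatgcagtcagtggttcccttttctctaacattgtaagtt

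The inward rectifiers that fell were Kcnj3 and Kcnj6, which encode GIRK1 and GIRK2, and Kcnj11, which encodes Kir6.2. GIRK channels open when G protein-coupled receptors such as the GABA-B receptor are activated, and GIRK1 needs a partner such as GIRK2 to reach the membrane. Kcnj3 read 10.13, 10.26 and 10.11 on the knockout arrays and 10.55, 10.73 and 10.50 on the wild-type arrays, a change of -0.42 (SE 0.07, adjusted p = 0.00601). A second probe set of Kcnj3 was at -0.03 (adjusted p = 0.892), so the probe sets of this gene give different changes. The second was much dimmer, with group means of 7.55 in the knockout and 7.58 in wild type. Those of the probe set used were 10.17 and 10.59. Kcnj6 had 10.39, 10.36 and 10.44 in the knockout and 10.67, 10.79 and 10.74 in wild type. Its groups were tight and did not overlap (change -0.34, SE 0.05, adjusted p = 0.00385), 1.26-fold lower in the knockout. The other GIRK subunits did not pass. Kcnj9, encoding GIRK3, was at -0.20 (95% interval -0.39 to -0.01, adjusted p = 0.208), and Kcnj5, encoding GIRK4 and named after its value was seen, at 0.14 (adjusted p = 0.523), with a range of 0.069 to 0.21 when wild-type replicate 2 or 1 was left out.

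Of the 3 genes with the core motif, Kcnj6 alone had it in a searched window that belonged to its outermost annotated start. The only window searched for Kcnc1, and the only one for Kcnc4, belonged to a start further downstream. The windows of their outermost starts were not searched, so Kcnj6 is not set apart from them by this. The Kcnj6 window is shown because its start is the outermost. The first stretch is the 250 bases before the start, at chr16:94997697-94997946 on the minus strand, with 64.0% G and C and neither motif. The second is the last 30 bases of the window, at chr16:94997647-94997676, in which TGACG, 37 bases after the start, is in capitals.
Kcnj6 before the start: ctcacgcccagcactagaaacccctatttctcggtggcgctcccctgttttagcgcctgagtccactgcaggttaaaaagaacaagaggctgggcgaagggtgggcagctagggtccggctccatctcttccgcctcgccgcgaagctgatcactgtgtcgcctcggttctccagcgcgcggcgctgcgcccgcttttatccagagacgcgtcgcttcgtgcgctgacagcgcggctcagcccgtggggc
Kcnj6 after the start: tgaatctgcggctttcaTGACGtctccctg

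Kcnj11 forms the pore of the ATP-sensitive potassium channel, which links metabolism to excitability. It read 7.83, 8.001 and 7.79 in the knockout and 8.28, 8.29 and 8.09 in wild type. The groups did not overlap, but the lowest wild-type array stood close to the highest knockout array (change -0.35, SE 0.08, adjusted p = 0.0358). The call was lost without any 1 of 4 arrays: the adjusted p was 0.106 or 0.0870 when knockout replicate 1 or 3 was left out, and 0.141 or 0.122 when wild-type replicate 1 or 2 was. Abcc8, which encodes SUR1, the regulatory subunit that Kir6.2 needs, fell more. Its values were 8.33, 8.31 and 8.50 in the knockout and 8.97, 9.25 and 8.99 in wild type (change -0.69, SE 0.09, adjusted p = 0.00200). The vascular pair of the same channel type stood near zero, named here after its values were seen: Kcnj8, the pore Kir6.1 of pericytes and smooth muscle, was at -0.05 (95% interval -0.23 to 0.14) and its SUR2 partner Abcc9 at -0.002 (95% interval -0.12 to 0.12). Kcnj10, the glial channel Kir4.1, also named after its value was seen, was at -0.07 (95% interval -0.27 to 0.12). The 11 inward rectifier genes that did not pass ranged from -0.20 to 0.14.

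Among the Kv1 genes only Kcna1 passed. Kcna1 encodes Kv1.1, a low-threshold channel of axons and nerve terminals mutations in which cause episodic ataxia in humans. Its values were 9.34, 9.58 and 9.30 on the knockout arrays and 9.83, 10.12 and 9.87 on the wild-type arrays. All knockout arrays were lower (change -0.53, SE 0.09, 95% interval -0.73 to -0.33, adjusted p = 0.00820), and the value was 1.45-fold lower in the knockout. Kcna2, whose product forms mixed channels with Kv1.1 and which is named after its value was seen, was at 0.15 (95% interval -0.004 to 0.30, adjusted p = 0.260). Without knockout replicate 3 it came to 0.23 and passed (adjusted p = 0.0398), and without knockout replicate 2 it came to 0.093. Kcna4, also named after its value was seen, had a change of 0.16 (adjusted p = 0.158) on the probe set used and of -0.20 (adjusted p = 0.193) on its other probe set. Kcna3, a channel also known from lymphocytes, had the smallest p of the Kv1 genes that did not pass, with a change of -0.33 (adjusted p = 0.145). That change came to -0.17 without knockout replicate 3. Kcna1 lies next to Kcna5 and Kcna6 on chromosome 6, and these neighbours were at 0.05 and -0.25 without passing.

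The Kv3 genes Kcnc1 and Kcnc4 encode channels that open and close fast and let neurons fire at high rates. Kcnc1 read 8.68, 8.69 and 8.43 in the knockout and 8.96, 9.17 and 8.92 in wild type (change -0.42, SE 0.09, adjusted p = 0.0226). The groups did not overlap, but the call was lost when wild-type replicate 1 (adjusted p = 0.0700) or 2 (adjusted p = 0.0790) was left out. Kcnc4 was the member closest to the threshold from inside, with 8.57, 8.72 and 8.68 in the knockout and 9.08, 8.99 and 8.83 in wild type (change -0.31, SE 0.07, adjusted p = 0.0364). Its adjusted p was 0.116 or 0.0614 when knockout replicate 1 or 3 was left out, and 0.147 or 0.113 when wild-type replicate 1 or 2 was. Kcnd2, which encodes Kv4.2, the main pore of the fast inactivating A-type current of granule neurons, had a change of -0.17 (adjusted p = 0.117). It passed without wild-type replicate 3 (change -0.23, adjusted p = 0.0436) and with the replicate block (change -0.17, adjusted p = 0.0439). Kcnb2, a delayed rectifier subunit, had the smallest p of the Kv2 to Kv4 genes that did not pass, at -0.15 (adjusted p = 0.102). The 6 genes of these families that did not pass ran from -0.39 to 0.12.

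Silent Kv subunits form no channel alone and modify Kv2 channels. Of 10 measured, Kcns2 fell, with 8.01, 8.07 and 8.15 on the knockout arrays and 8.60, 8.39 and 8.40 on the wild-type arrays (change -0.39, adjusted p = 0.0151). The groups were separate, but the adjusted p was 0.0573 without knockout replicate 1 and 0.0668 without wild-type replicate 1. Among the 87 genes, Kcng4 had the highest change of those that did not pass, 0.25 (adjusted p = 0.226 in limma). Its groups overlapped, and the change came to 0.15 without wild-type replicate 1. The other 8 silent subunits stayed between -0.11 and 0.12. Of the 8 EAG-family genes, Kcnh7 fell. It encodes an ERG channel that closes slowly and carries current after a spike, and read 8.58, 8.72 and 8.61 in the knockout and 8.89, 8.91 and 8.96 in wild type (change -0.29, SE 0.06, adjusted p = 0.0196). The adjusted p was 0.0737 without knockout replicate 1 and 0.0672, 0.0597 and 0.0628 without wild-type replicate 1, 2 and 3. Its relative Kcnh6, the member just outside the threshold, had a change of -0.30 with a larger error (SE 0.09, adjusted p = 0.0924).

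Auxiliary subunits showed falls in 1 calcium-binding partner of Kv4 channels and 1 partner of BK channels. Kcnip3, also known as DREAM or calsenilin, binds Kv4 channels and, in the nucleus, DNA. It read 9.86, 9.90 and 9.84 on the knockout arrays and 10.23, 10.22 and 10.14 on the wild-type arrays, with narrow groups that did not overlap (change -0.33, SE 0.05, adjusted p = 0.00372). Of the other 10 Kvβ, KChIP and KCNE genes none passed. They ranged from -0.27 to 0.06. Kcnab3, a Kvβ subunit, was at -0.27 (adjusted p = 0.133) on the probe set used and at 0.08 on another. The KCNE family gene Kcne1l, also called Kcne5, was at 0.06 (adjusted p = 0.644), and between 0.023 and 0.12 when knockout replicate 3 or 1 was left out.

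BK channels open on calcium and depolarisation together. Their pore gene Kcnma1 was at 0.01 (95% interval -0.12 to 0.15, adjusted p = 0.942), with overlapping groups. The neuronal auxiliary subunit Kcnmb4, which slows BK gating, fell: it read 9.13, 9.25 and 9.17 in the knockout and 9.55, 9.60 and 9.51 in wild type (change -0.37, SE 0.05, adjusted p = 0.00421). A second probe set of Kcnmb4 was at -0.18 and did not pass (adjusted p = 0.377). None of the 4 SK genes, small-conductance calcium-activated channels, passed. The smallest p among them was that of Kcnn1 (change -0.17, adjusted p = 0.143). Kcnt1, which encodes the sodium-activated channel Slack, fell slightly, with 8.50, 8.48 and 8.46 in the knockout and 8.72, 8.83 and 8.69 in wild type (change -0.26, SE 0.06, adjusted p = 0.0306). The values within each group were close, but the call was lost without knockout replicate 1, 2 or 3 (adjusted p of 0.0741, 0.0619 and 0.0669) and without wild-type replicate 1 or 2 (0.0924 and 0.103).

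Channel partners and other potassium transport genes were read from a list of 43, of which 37 were measured. In limma 12 of the 37 fell (32.4%) and none rose, beside the 3.94% and 2.72% of all genes. The median change of the 37 was -0.09. Of the falls, 8 were genes listed under Kv1 complexes or as anchors of Kv7 channels. Of 9 genes of Kv1 complexes, 5 fell: the adhesion molecules Cntn2 (change -0.77) and Cntnap2 (-0.28, adjusted p = 0.0431), which cluster Kv1 channels beside the node of Ranvier, the LGI1 receptor Adam23 (-0.36), and the scaffolds Dlg4 (-0.39) and Dlg2 (-0.27). Cntn2 is also a granule neuron marker, with 10.76, 10.83 and 10.89 in the knockout against 11.60, 11.59 and 11.61 in wild type.

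All 3 genes listed as anchors fell: Ank3 and Sptbn4, the ankyrin-G and beta-IV spectrin that tether Kv7 channels at the axon initial segment, and Ank2, which encodes ankyrin-B. Ank3 read 11.62, 11.57 and 11.48 in the knockout and 11.99, 11.99 and 11.97 in wild type (change -0.43, SE 0.05, adjusted p = 0.000838). Ank2 was at -0.38 (adjusted p = 0.00137) and Sptbn4 at -0.33 (adjusted p = 0.0312). Lingo1, a partner of BK channels, fell by 0.54 (adjusted p = 0.00161), while the other 4 BK partners, the gamma subunit relatives, lay between -0.12 and 0.06. Hcn2, a pacemaker channel that also passes sodium, had a change of -0.43 (adjusted p = 0.0390). Slc12a5, the chloride-extruding cotransporter KCC2 of maturing neurons, was at -0.30 (adjusted p = 0.0140), while the other 4 cotransporter genes measured lay between 0.01 and 0.23. The 3 measured beta subunits of the sodium-potassium pump, the 3 Kctd partners of GABA-B receptors and the 3 partners of Kv4 and Kv2 channels did not pass. Of the 12 that fell, 6 lost the call when some array was left out, and the count that fell was then 6 at the lowest, with wild-type replicate 1 out. In that fit the adjusted p was 0.0517 for Dlg4, 0.0640 for Slc12a5, 0.0882 for Hcn2, 0.0940 for Dlg2, 0.129 for Sptbn4 and 0.176 for Cntnap2. With wild-type replicate 2 out the count was 7, and the adjusted p was 0.0556 for Slc12a5, 0.0605 for Hcn2, 0.0893 for Sptbn4, 0.106 for Dlg2 and 0.117 for Cntnap2. Leaving out a knockout array also ended the calls of Hcn2 (0.0992 for replicate 1 and 0.0935 for replicate 3), Dlg2 (0.0615 for replicate 2 and 0.0745 for replicate 3), Cntnap2 (0.0849 for replicate 2 and 0.0965 for replicate 3) and Sptbn4 (0.0641, 0.0775 and 0.0623 for replicates 1, 2 and 3).

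**Figure D3:**
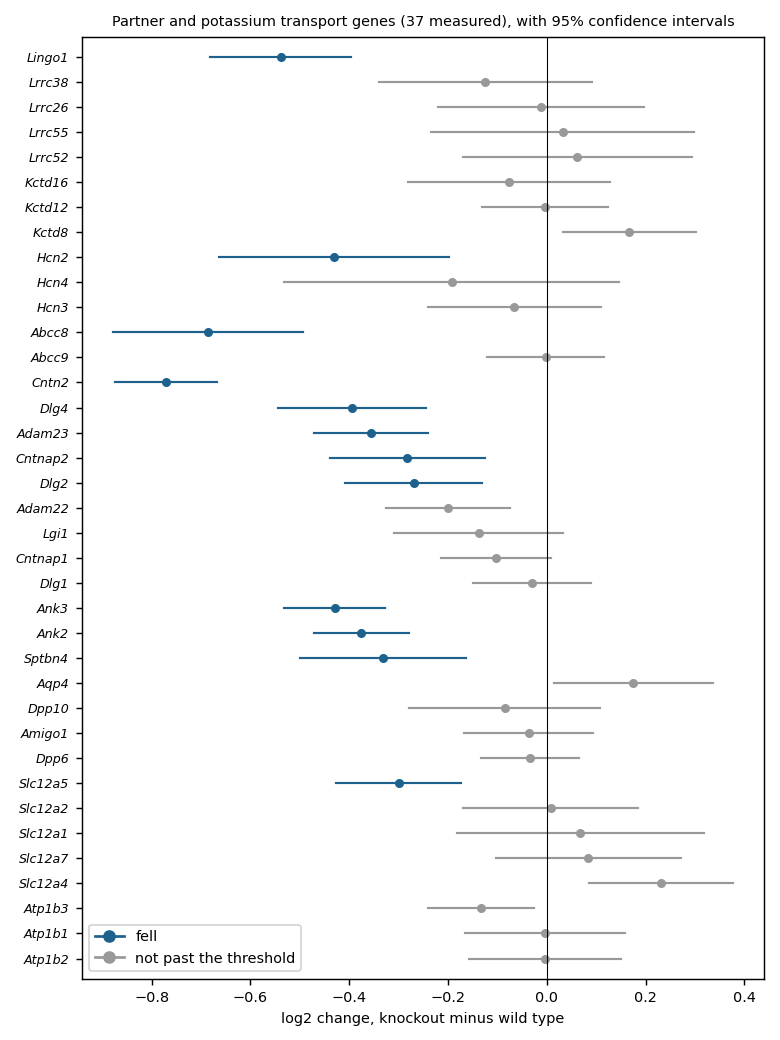
Log2 change (knockout minus wild type, horizontal axis) of the 37 measured channel partner and potassium transport genes, arranged by kind and, within a kind, by change; points are limma estimates from 3 knockout and 3 wild-type arrays and lines are 95% confidence intervals. The 12 genes that fell (blue) run from Cntn2 at -0.77 to Dlg2 at -0.27, and the 25 that did not pass (grey) from -0.20 to 0.23.

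The 15 channel genes that fell were also read array by array. Their mean relative to the wild-type average, which the choice of fallen genes fixes in direction, was -0.45, -0.36 and -0.44 on the knockout arrays and -0.01, 0.07 and -0.06 on the wild-type arrays. Knockout replicates 1 and 3 and wild-type replicate 1 had the higher choroid plexus values, with the choroid plexus gene Ttr at 13.77, 9.19 and 13.92 on the knockout arrays and at 12.30, 8.08 and 8.91 on the wild-type arrays. Ttr was low on knockout replicate 2 and on wild-type replicates 2 and 3. The direction of the 15 genes between those arrays is fixed by their choice, since no group overlapped, so only the size is given: their median difference there was -0.35, beside -0.39 with all 6 arrays. Kcnk9 read 10.98 on knockout replicate 2 against 10.52 and 10.51 on those wild-type arrays.

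**Figure D4:**
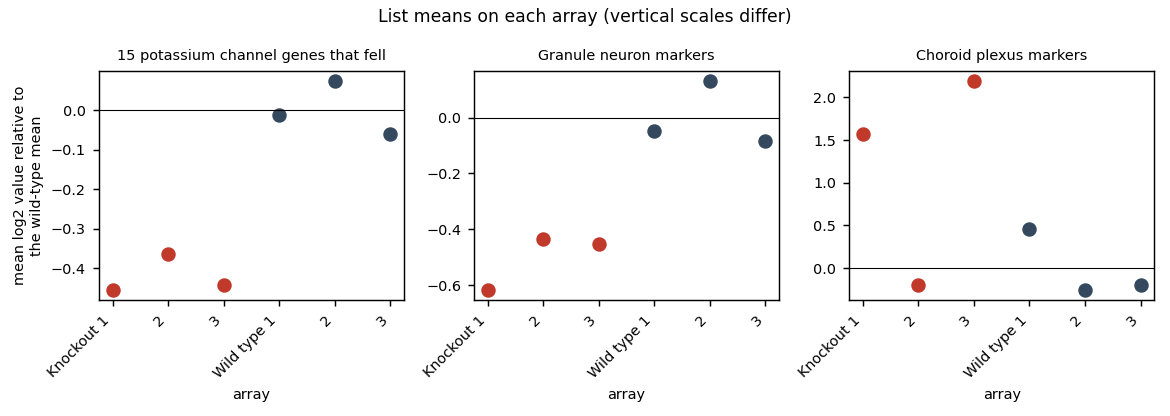
Mean log2 value relative to the wild-type average (vertical axes, whose scales differ) on each of 3 knockout and 3 wild-type arrays for the 15 potassium channel genes that fell, the 12 granule neuron markers and the 9 choroid plexus markers. The fallen channel genes are low on all 3 knockout arrays, which their choice fixes, and so are the granule neuron markers. The choroid plexus markers are high on knockout replicates 1 and 3 and stand at the wild-type level on knockout replicate 2.

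When the mean of the choroid plexus markers entered limma as a covariate, 7 of the 15 kept an adjusted p under 0.05 and Kcnk9 still passed. The 8 that did not pass were Kcna1 (change -0.38, adjusted p = 0.0560), Kcnj3 (-0.34, 0.0561), Kcnk12 (-0.54, 0.0690), Kcnh7 (-0.22, 0.143), Kcnt1 (-0.25, 0.143), Kcnc4 (-0.30, 0.154), Kcnc1 (-0.31, 0.164) and Kcnj11 (-0.26, 0.217). Their changes were thus within 1.5 times of those without the covariate. Without the 3 arrays with Ttr above 10, which leaves 1 knockout and 2 wild-type arrays and assumes that the lone knockout array varies like the wild-type ones, Kcnq5, Kcnk1 and Kcnk9 still passed. All 16 genes kept their sign in each of the alternatives that were run. Where arrays were left out, the sign was fixed in advance, since the groups of these genes did not overlap. Of the 16, 10 passed whichever single array was left out. The 6 that did not are Kcnh7, Kcnc1, Kcnc4, Kcnt1, Kcnj11 and Kcns2, whose values without each array are given with the gene. Kcnq5, Kcnk1 and Kcnk9 passed under all 16 of the alternatives that refit the data.

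**Figure D5:**
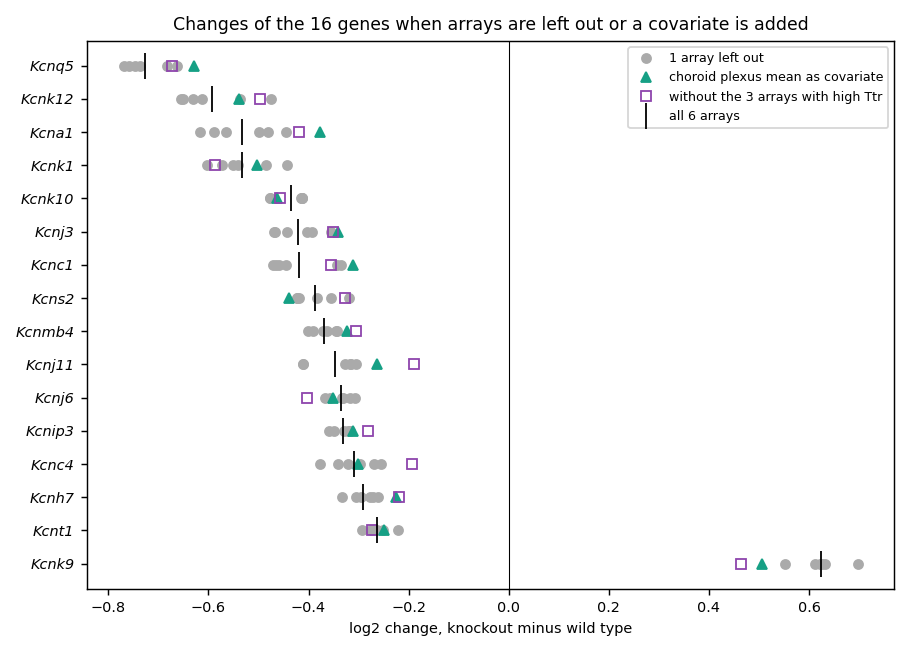
Log2 change (knockout minus wild type, horizontal axis) of the 16 potassium channel genes past the threshold with all 6 arrays (black line), with 1 array left out (grey circles), with the choroid plexus mean as covariate (triangles) and without the 3 arrays with high Ttr (open squares). No symbol crosses zero: Kcnk9 stays above it and the other 15 genes stay below it. For the fits with arrays left out this was fixed in advance, since the groups do not overlap.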

How the data were processed

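The deposited values are log2 expression values, 1 per probe set and array, for 6 samples of mouse cerebellum. Per the submitters' processing notes, RMA and the oligo package were used, with no version stated. An array build or earlier filter was not given in the sources used here. No label ties arrays of a group to separate animals. The p-values therefore reflect the spread between these samples alone, which may be technical, and the 3 arrays per group limit the precision.

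Of 41345 probe sets, 23521 had 1 symbol, 1814 several and 16010 none in GEO's platform annotation. For each of 22180 genes the brightest such probe set was compared between groups with limma 3.58.1 in R 4.3.3 (lmFit, eBayes with a trend, two-sided), with Benjamini-Hochberg adjustment over all genes. "Rose" and "fell" mean an adjusted p under 0.05. Of the probe sets that name several genes, 4 with a potassium channel symbol were not used. The fit was tested on simulated data. Promoter windows and gene neighbours came from RefSeq tables (GRCm38.p6), handled in Python 3.11.15 with pandas 2.3.3. Plots used matplotlib 3.10.9.

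The members and lists were chosen with earlier results of these data known. Named genes were Crebbp, every member and partner past the threshold, the members nearest to it, the 3 largest changes, and, per subfamily, the brightest member and the smallest p that did not pass, with 4 granule lineage and 4 choroid plexus genes. Kcnj13 lay only on a probe set shared with another gene. Other genes are said to be named after their values were seen, or stand as context. Same-numbered knockout and wild-type arrays deviated from their group means with correlations of 0.01, 0.03 and -0.13. With 3 arrays per group these cannot tell whether the numbers pair samples, and the labels do not say. Alternatives were other priors, array weights, centring or quantile normalization, a filter on dim genes, the mean of all probe sets, other thresholds, a replicate block, the choroid plexus mean as covariate, and arrays left out.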

Additional observations from a re-analysis of the deposited data

How the results depend on the processing

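The count of potassium channel genes that fell, 15 with all arrays, came to 7 with the choroid plexus mean as covariate, 8 without a trend in the prior variance, 9 at an adjusted p under 0.01, 2 without the arrays with Ttr above 10, and 9 to 15 with 1 array left out. The count that rose, 1, came to 1 or 2 with 1 array left out. The partner count that fell, 12, came to 6 with the covariate, 6 without the trend, 7 at an adjusted p under 0.01, 2 without the high-Ttr arrays and 6 to 12 with 1 array left out; the partner count that rose, 0, came to 1 under the replicate block and 0 to 1 with 1 array left out. The median change of -0.09 ranged from -0.12 to -0.08. Kcnmb4 (adjusted p = 0.0546) and Kcnj3 (0.0648) did not pass with the mean of all probe sets. The replicate block, in samples not labelled as paired, gave 17 channel genes that fell and 1 that rose.

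Genes near zero changed sign: Kcnma1 came to -0.012 after median centring and ran from -0.031 to 0.075 with 1 array left out, Kcna4 to -0.021 with the mean of its probe sets, Kcnj8 to 0.038 without wild-type replicate 3, Kcnj10 to 0.030 with the covariate and 0.13 without the high-Ttr arrays (-0.15 to 0.016 with 1 array left out), and Abcc9 to 0.0042 with array weights and 0.0051 after quantile normalization (-0.020 to 0.034 with 1 array left out). Ttr, at 2.53 with all arrays (adjusted p = 0.311 in limma), came to -0.36 with the covariate, a mean that includes Ttr itself. Ttr passed without knockout replicate 2 (change 4.08, adjusted p = 0.0379) and with the replicate block (change 2.53, adjusted p = 0.0442). Kl came to -0.039 without the high-Ttr arrays. The table holds no detection measure, so low genes cannot be called absent.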
